A study of Mus musculus with 28 samples.

Results

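The aquaporins examined were Aqp1, Aqp3, Aqp4, Aqp5, Aqp7, Aqp8, Aqp9 and Aqp11. They were taken by gene name from the probe annotation of the scanner files. They are 8 of the 12 family genes that have a probe on the array, among 28034 genes named there, and they have 13 probes. Every sample was total RNA of C57BL/6 mice or of cultures from them, labelled with Cy3 and hybridised beside a commercial mouse reference RNA labelled with Cy5. The 28 arrays make up 13 groups. Organoids, started from single liver cells isolated for the receptor Lgr5, were kept in differentiation medium (DM, 1 array with no biological replicate) or in expansion medium (EM, 2 arrays). Cells sorted for Lgr5 came from livers at day 6 of treatment with carbon tetrachloride (CCl4, a toxin that kills hepatocytes; 2 arrays), duct cells were sorted for the antigen of the antibody Mic1-1c3 (2), and hepatocytes were the hepatocyte fraction of isolated liver (2). Tissues were whole liver (2), liver of wild-type mice labelled adult liver (2), liver at day 3 (2) and day 13 (2) of CCl4, pancreas (2), brown adipose tissue (3), muscle (3) and white adipose tissue (3). The labels give no allele, age, sex or number of animals pooled for any group, so p-values measure the spread between arrays labelled as biological replicates.

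Aquaporins are tetrameric membrane channels through which water follows osmotic gradients. Aqp1, Aqp4 and Aqp5 carry mainly water, Aqp8 also passes ammonia and hydrogen peroxide, and Aqp3, Aqp7 and Aqp9 are aquaglyceroporins that pass glycerol as well. Aqp11 is a divergent member that sits mostly in intracellular membranes. In liver, cholangiocytes and endothelium are known for Aqp1, while hepatocytes carry Aqp8 and take up through Aqp9 the glycerol that adipocytes release through Aqp7. Aqp5 is best known from the apical membrane of salivary, lacrimal and airway glands, and Aqp4 from astrocytes and the membrane of fast muscle fibres.

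Sequence is shown for the promoters of the 3 members that were high together in liver and hepatocytes (Aqp8, Aqp9, Aqp11), of Aqp5, which was high in organoids, and of Aqp3, which differed between organoid media. Each runs from 250 bases before to 50 bases after the transcript start, 5′ to 3′ on the gene's strand, as given by RefSeq for GRCm38.p6, whose table held 7 of the 8 members. They lie at chr7:123462044-123462343 (Aqp8, plus strand), chr9:71163240-71163539 (Aqp9, minus strand, the first of 2 starts), chr7:97738198-97738497 (Aqp11, minus strand), chr15:99590778-99591077 (Aqp5, plus strand) and chr4:41098134-41098433 (Aqp3, minus strand). Capitals mark matches, on either strand, to 6 motifs: TATA box TATAAA, GC box GGGCGG, C/EBP TTGCNNAA, HNF1 GTTAAT, HNF4 CAAAGT and FOX TGTTTAC.
Aqp8: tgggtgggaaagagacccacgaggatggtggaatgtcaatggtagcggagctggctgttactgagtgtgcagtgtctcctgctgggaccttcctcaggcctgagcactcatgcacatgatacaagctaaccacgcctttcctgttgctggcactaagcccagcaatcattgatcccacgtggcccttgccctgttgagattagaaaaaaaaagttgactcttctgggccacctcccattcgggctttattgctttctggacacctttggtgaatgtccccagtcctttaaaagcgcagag
Aqp9: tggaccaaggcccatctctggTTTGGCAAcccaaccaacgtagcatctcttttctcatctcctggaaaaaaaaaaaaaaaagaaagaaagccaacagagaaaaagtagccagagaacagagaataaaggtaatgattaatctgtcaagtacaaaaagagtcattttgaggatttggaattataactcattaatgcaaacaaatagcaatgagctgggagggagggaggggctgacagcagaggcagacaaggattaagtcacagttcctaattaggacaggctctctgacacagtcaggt
Aqp11: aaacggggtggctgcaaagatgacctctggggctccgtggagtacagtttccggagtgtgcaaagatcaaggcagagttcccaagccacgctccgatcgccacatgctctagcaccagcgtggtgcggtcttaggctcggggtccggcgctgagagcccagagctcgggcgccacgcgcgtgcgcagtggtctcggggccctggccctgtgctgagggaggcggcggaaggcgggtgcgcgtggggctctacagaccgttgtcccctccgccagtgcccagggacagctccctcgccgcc
Aqp5: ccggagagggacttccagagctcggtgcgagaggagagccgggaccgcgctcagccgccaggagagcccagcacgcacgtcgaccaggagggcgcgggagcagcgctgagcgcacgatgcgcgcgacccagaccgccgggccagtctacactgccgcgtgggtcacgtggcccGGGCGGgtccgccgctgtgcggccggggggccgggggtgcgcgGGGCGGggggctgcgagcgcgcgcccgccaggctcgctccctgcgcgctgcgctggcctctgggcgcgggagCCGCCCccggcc
Aqp3: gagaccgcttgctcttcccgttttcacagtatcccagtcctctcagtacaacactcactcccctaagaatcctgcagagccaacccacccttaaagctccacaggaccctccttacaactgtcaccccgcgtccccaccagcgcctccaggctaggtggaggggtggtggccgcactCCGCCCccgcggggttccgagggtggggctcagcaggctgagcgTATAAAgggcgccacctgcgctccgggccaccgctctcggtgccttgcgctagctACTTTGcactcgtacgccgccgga

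The Aqp5 promoter held 3 GC boxes, starting -77, -34 and 39 bases from the start, and 79.7% G and C, against a median of 52.7% over 27025 promoters (quartiles 45.7 and 61.7%). The Aqp3 promoter held a TATA box at -29, a GC box at -73 and an HNF4 match at 27 (64% G and C). The Aqp9 promoter held 1 C/EBP match, at -229, and 41.3% G and C. No match to the 6 motifs lay in the windows of Aqp8 (52% G and C) or Aqp11 (68%). Of all promoters, 35.9% held the GC box, 10.8% the C/EBP motif, 14.2% the TATA box, 7.2% the HNF1, 14.3% the HNF4 and 3.55% the FOX motif. A match is a run of letters, and these windows say nothing of which factor was bound. Some of the family are close neighbours in the genome: the starts of Aqp3 and Aqp7 lie 50 kb apart on chromosome 4, and those of Aqp5 and Aqp2 12 kb apart on chromosome 15.

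Values are log2 of sample over reference signal (Cy3 over Cy5), so that 0 means as much signal as the reference RNA gave. They are used to set samples side by side for 1 gene and cannot be set against those of another gene. Their order need not be that of the Cy3 signal. For albumin (Alb), Lgr5-sorted cells read 6.35 and 6.49 at a log2 Cy3 of 15.07 and 14.08, and adult liver 3.85 and 3.96 at 18.83 and 18.49. A value marked as not above background had a Cy3 spot that the scanner software did not find well above its surroundings, and is then only an upper limit. The reference RNA itself was well above background in Cy5 on all 28 arrays for Aqp1, Aqp3, Aqp5, Aqp8 and Aqp11, but on 17 for Aqp9, 8 for Aqp7 and 1 for Aqp4, so that the ratios of these 3 genes are largely over a reference at background and their size is uncertain. Between 18.2% (pancreas replicate 1) and 69.6% (brown adipose tissue replicate 2) of probes were well above background in Cy3, and the pair of Lgr5-sorted arrays, at 22.2 and 19.0%, was among the dimmest. The labelled tissues carried their markers: all 8 hepatocyte markers were above background on the 10 liver and hepatocyte arrays, 7 or 8 of 8 biliary markers on organoid and duct cell arrays, and all 7 acinar markers in pancreas. Acinar markers were also above background in adult liver, 7 of 7 on replicate 1 and 3 of 7 on replicate 2. Those on replicate 2 included Amy2a5, which was above background in isolated hepatocytes too. Lgr5-sorted cells had 2 of 8 biliary markers on each array, without Krt19 or Epcam, but 7 and 6 of 7 macrophage markers, so results on them are given for that population as sorted. The Y-linked Ddx3y was above background in DM organoids, adult liver, hepatocytes, livers at day 3, adipose tissues and muscle, and on no array of EM organoids, livers at day 13, duct cells or Lgr5-sorted cells. Whole liver was split, with 2.35 on replicate 1 and -0.69, not above background, on replicate 2. In pancreas only replicate 2 was above background. Sex, which the labels do not give, therefore cannot be told apart from group where a comparison crosses that line, and the whole liver arrays fall on both sides of it.

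**Figure D1:**
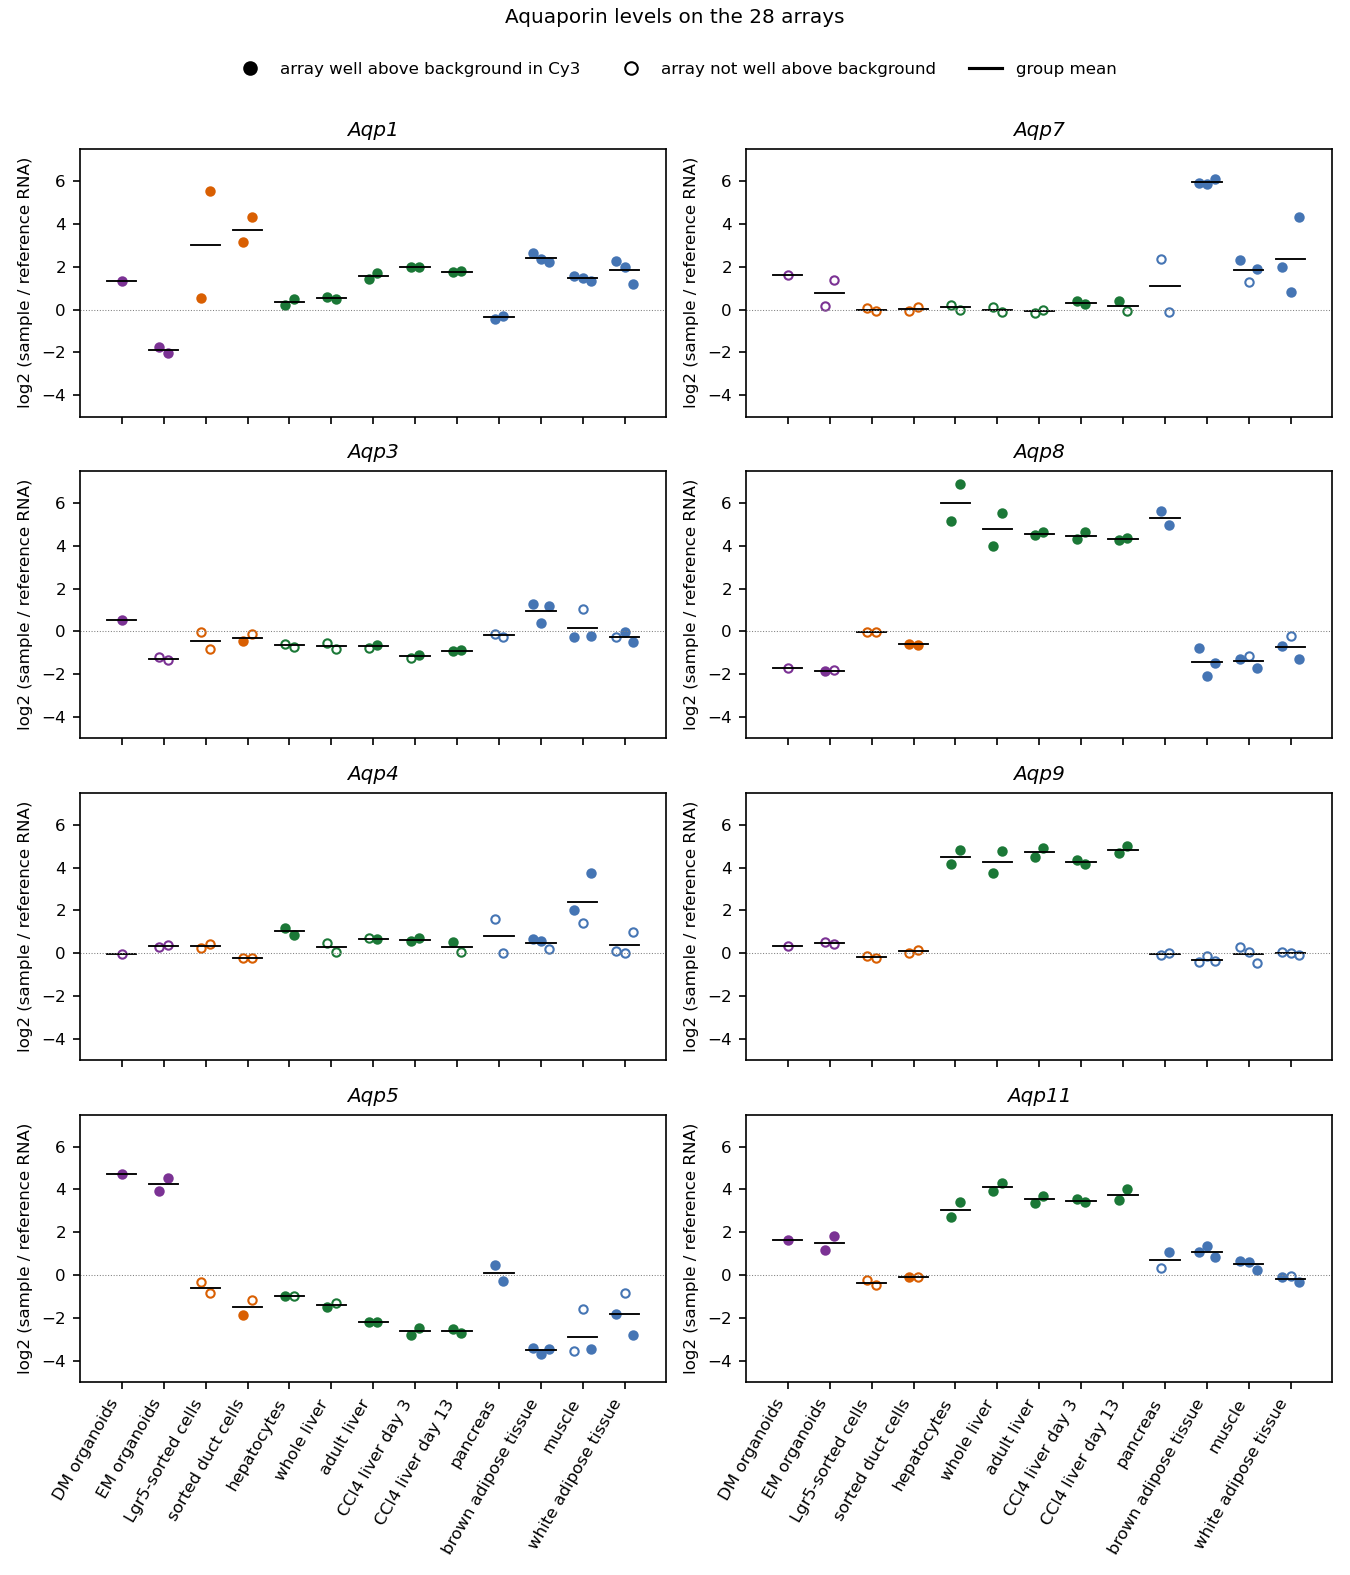
Log2 ratio of sample to reference RNA (vertical axis) of the 8 aquaporins on each of the 28 arrays, in 13 groups (horizontal axis). Filled points were well above background in Cy3, open points were not, and lines are group means. Aqp8, Aqp9 and Aqp11 are high in the liver and hepatocyte groups, Aqp5 in organoids, Aqp7 in brown adipose tissue, and Aqp9 has filled points on 10 arrays only.

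Among the channels for water alone, Aqp1 is the one that bile duct epithelium and endothelium share. Its probe (chr6:55298480-55298539, mm9) was above background on all 28 arrays. Log2 ratios were 1.31 in DM organoids, -1.77 and -2.01 in EM organoids, 0.54 and 5.53 in Lgr5-sorted cells, and 3.14 and 4.33 in duct cells. Hepatocytes had 0.19 and 0.49, whole liver 0.57 and 0.50, adult liver 1.43 and 1.73, livers at day 3 of CCl4 2.01 and 2.01, and at day 13 1.75 and 1.79. EM organoids were thus the lowest group of all, below both pancreas arrays (-0.43 and -0.31), and the Lgr5-sorted pair was so far apart that its mean of 3.04 ± 3.53 (SD, n = 2) describes neither array. Brown adipose tissue had 2.62, 2.37 and 2.20, muscle 1.58, 1.46 and 1.34, and white adipose tissue 2.29, 2.01 and 1.21. Ordered by mean, no 2 neighbouring groups differed by an adjusted p under 0.05 and a log2 change of at least 1 (limma over all genes; this pair of limits defines "called" throughout).

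Aqp5 separated the organoids from every other sample. Its probe (chr15:99425131-99425189, mm9) gave 4.73 in DM organoids and 3.94 and 4.55 in EM organoids. The next group was pancreas, at 0.49 and -0.28, and EM organoids lay above it by 4.14 (limma, adjusted p = 3.69e-06). Duct cells had -1.86 and -1.15, Lgr5-sorted cells -0.31 and -0.85, and hepatocytes -1.0 and -0.97, with only the first array of duct cells and of hepatocytes above background. Whole liver had -1.48 and -1.31. The other livers were lower, with adult liver at -2.21 and -2.21, day 3 at -2.80 and -2.47, and day 13 at -2.52 and -2.69. Outside the organoids the highest array was thus pancreas replicate 1, and the second whole liver array was not above background. Brown adipose tissue was lowest, at -3.40, -3.70 and -3.44, with muscle at -3.55, -1.60 and -3.47 (only the third above background) and white adipose tissue at -1.84, -0.82 and -2.80 (the second not above background). The genes closest to Aqp5 over the 13 group means were Ccdc103 (r = 0.983), Igsf9 (0.983) and Tex22 (0.981), out of 16103 candidates.

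Aqp4, the muscle and astrocyte channel on chromosome 18, was above background on 10 arrays. Muscle had 2.04 and 3.76 on the 2 arrays above background and 1.41 on the second, which was not. Hepatocytes, the next group, had 1.17 and 0.87, and muscle lay above them by 1.38 (limma, adjusted p = 0.0212). The other 6 arrays above background, 1 of adult liver, 2 at day 3, 1 at day 13 and 2 of brown adipose tissue, lay between 0.51 and 0.70. No organoid, duct, Lgr5-sorted, whole liver, pancreas or white adipose array was above background, so for these groups the data give a limit and no level. The 3 probes of Aqp4 followed one another, with r of 0.804 to 0.876 over 28 arrays.

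By its ratio, Aqp8 was high in liver and, unlike the other liver aquaporins, also in pancreas. With the Cy3 signal scaled alone, without the reference, Aqp8 was higher in adult liver than in pancreas, by 3.16 (limma, adjusted p = 2.3e-04). Its probe (chr7:130611436-130611495, mm9) gave 5.17 and 6.87 in hepatocytes, 3.98 and 5.55 in whole liver, 4.50 and 4.63 in adult liver, 4.30 and 4.64 at day 3 and 4.27 and 4.36 at day 13. Pancreas had 5.63 and 4.95, inside the range of the liver and hepatocyte arrays. The 12 arrays of these 6 groups lay apart from the other 16, none of which passed -0.03. Organoids were at -1.69 (DM, not above background) and -1.87 and -1.81 (EM, the second not above background), Lgr5-sorted cells at -0.03 and -0.04 (neither above background), and duct cells at -0.58 and -0.63. Brown adipose tissue had -0.78, -2.08 and -1.49, muscle -1.28, -1.15 and -1.69, and white adipose tissue -0.68, -0.20 and -1.29, the second of the last 2 groups not above background. The gap in the order fell between day 13 livers and Lgr5-sorted cells, at 4.36 (limma, adjusted p = 5.99e-07). Gls2 (r = 0.982), Nat8f1 (0.975) and Ang (0.973) were closest over the group means.

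Of the glycerol channels, Aqp3, known from skin and the collecting duct of the kidney, was faint throughout, with 13 arrays above background. The DM array had 0.54, whereas both EM arrays were not above background, at -1.20 and -1.34. Brown adipose tissue, with 1.29, 0.40 and 1.19, was the highest group. All other arrays lay between -1.23 and -0.01 except muscle replicate 2, at 1.03 and not above background. Muscle replicates 1 and 3 had -0.26 and -0.23, and white adipose tissue -0.28, -0.01 and -0.48, the first not above background. No neighbouring groups in the order of means differed past the limits, and Ly6c1 (r = 0.91), Lctl (0.894) and Ftdc2 (0.878) had the closest patterns.

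Aqp7, through which adipocytes release glycerol, was highest in brown fat. Brown adipose tissue had 5.92, 5.87 and 6.09. White adipose tissue had 2.00, 0.84 and 4.30, a spread of 1.76 (SD, n = 3), and muscle 2.33 and 1.88, with 1.29 on an array not above background. Every brown fat array was above every white fat and muscle array, and those 2 groups overlapped. The other 3 arrays above background, both at day 3 and 1 at day 13 of CCl4, read 0.26 to 0.38, and no organoid, sorted cell, hepatocyte, undamaged liver or pancreas array was above background. That day 13 array, replicate 1, also carried 6 of 6 skeletal muscle markers (mean 2.82) and 5 of 6 adipocyte markers (mean 2.40), and their part was not tested. The 2 Aqp7 probes (the one used at chr4:40981243-40981302, mm9) followed each other with r = 0.94. Idh3g (r = 0.989), 4930519F09Rik (0.977) and Spaca1 (0.969) followed it most closely.

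Aqp9, the hepatocyte's glycerol entry, was detected on exactly the 10 liver and hepatocyte arrays. Its most abundant probe (chr9:70959173-70959232, mm9) gave 4.16 and 4.80 in hepatocytes, 3.74 and 4.79 in whole liver, 4.51 and 4.91 in adult liver, 4.37 and 4.16 at day 3 and 4.68 and 5.0 at day 13. On the other 18 arrays it was not above background and read -0.45 to 0.53. No neighbouring pair among the 5 positive groups differed past the limits, and the lowest mean of them (day 3) lay 3.80 above EM organoids (limma, adjusted p = 1.58e-09). Ugt2a1 (r = 0.996), F13b (0.996) and F7 (0.994) had nearly the same profile.

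The 3 Aqp9 probes gave ratios of different size. Beside the probe at base 1879 of the transcript, the array holds probes at bases 463 and 879, whose sequences are shown because they carry the disagreement (lower case, 5′ to 3′; mm9, minus strand, chr9:70980489-70980548 and, over 10465 bases of genome, chr9:70960173-70970637).
Aqp9, base 463: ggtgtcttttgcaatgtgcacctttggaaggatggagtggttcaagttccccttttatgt
Aqp9, base 879: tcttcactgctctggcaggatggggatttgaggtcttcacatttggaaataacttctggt

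Both upstream probes were above background in Cy3 on 10 arrays. In Cy5 the reference RNA was above background on 13 of 28 arrays at base 463, 6 at base 879 and 17 at base 1879, so that the ratios often rest on a reference at background. Levels of different probes are not comparable, and the gaps below are given for how they varied between arrays. On the 4 hepatocyte and whole liver arrays, the probe at base 1879 read 2.35 to 4.48 above that at base 463 and 2.16 to 4.03 above that at base 879. On the 6 arrays of adult liver and of both CCl4 times the gaps were 0.74 to 1.55 and 0.96 to 1.59. The 2 sets of arrays did not overlap. The 4 arrays with the wide gap share 2 slides, numbered 11 and 12 here, which hold none of the other 6, so that slide and sample preparation cannot be told apart. Duct cells against hepatocytes then differed by -1.18 ± 0.55 (SE; limma, adjusted p = 0.124) at base 463 and by -1.43 ± 0.27 (adjusted p = 2.65e-04) at base 879, against -4.40 ± 0.28 at base 1879. For EM organoids against adult liver the upstream probes gave -3.02 ± 0.55 and -3.77 ± 0.27, closer to the -4.24 ± 0.28 of the third.

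**Figure D2:**
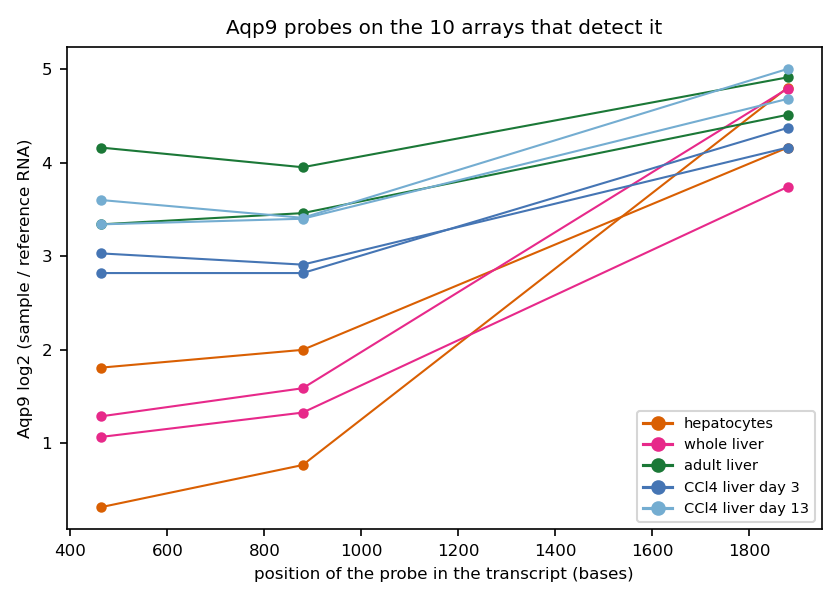
Log2 ratio of Aqp9 to reference RNA (vertical axis) for the 3 probes, placed by their position in the transcript in bases (horizontal axis), on the 10 arrays where the gene was above background; each line is 1 array. The gap between the first and last probe is 2.35 to 4.48 on the 4 hepatocyte and whole liver arrays and 0.74 to 1.55 on the other 6.

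Aqp11, the intracellular member, was highest in liver and intermediate in organoids. Hepatocytes had 2.70 and 3.42, whole liver 3.94 and 4.32, adult liver 3.38 and 3.69, livers at day 3 3.56 and 3.40 and at day 13 3.51 and 4.02 (probe at chr7:104874989-104875048, mm9). Organoids came next, with 1.64 in DM and 1.15 and 1.83 in EM, and hepatocytes lay above the DM array by 1.42 (limma, adjusted p = 0.00397), the only neighbours in the order that differed past the limits. Brown adipose tissue had 1.06, 1.35 and 0.86, muscle 0.64, 0.63 and 0.22, and white adipose tissue -0.10, -0.05 and -0.33, the second not above background. Pancreas had 0.31 (not above background) and 1.09. The sorted cells were at the bottom together with white adipose tissue, with -0.22 and -0.48 in Lgr5-sorted cells (neither above background) and -0.11 and -0.11 in duct cells (the second not above background). Gramd1c (r = 0.969) and Tango2 (0.96) were among the nearest. Over the same 13 group means Aqp9 and Aqp11 correlated at r = 0.933, Aqp8 and Aqp9 at 0.798, Aqp3 and Aqp7 at 0.766 and Aqp8 and Aqp11 at 0.705, and the lowest value was -0.603 for Aqp3 and Aqp9; these are descriptions, since all groups share 1 reference RNA.

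Across 16 comparisons the 8 members gave 39 calls among 128 pairs of gene and comparison, which is 30.5%, where 18.3% of such pairs were called over all genes tested. Aqp11 was called in 9 comparisons, Aqp9 in 7, Aqp8 in 6, Aqp5 in 5, Aqp1 in 4, Aqp3 and Aqp7 in 3 each and Aqp4 in 2. All comparisons come from 1 limma model with a mean per group, and several share a group, above all adult liver.

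**Figure D3:**
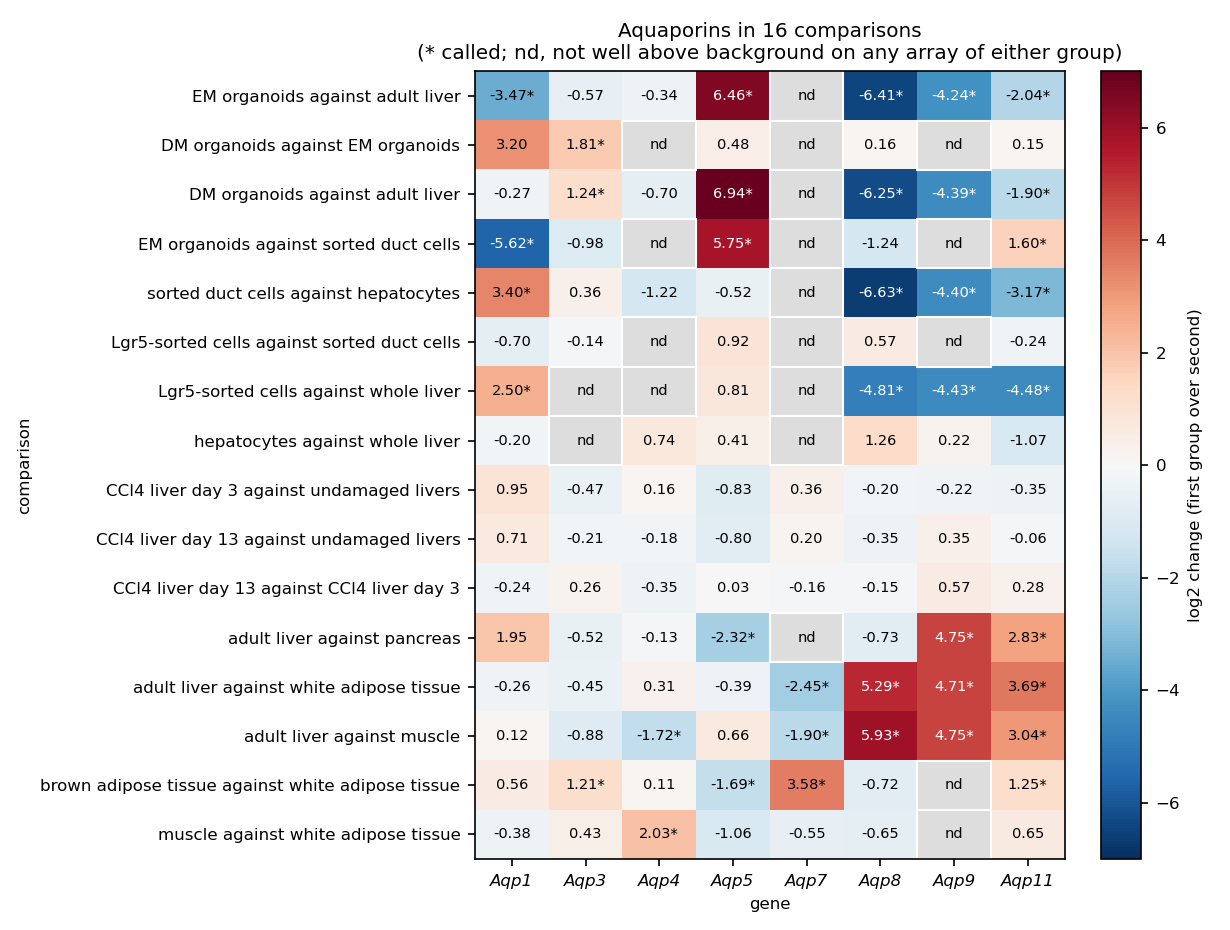
Log2 change of each aquaporin (horizontal axis) in the 16 comparisons (vertical axis), as the first named group over the second; colour and number give the change, an asterisk a call, and nd that neither group had an array above background. The 3 liver aquaporins Aqp8, Aqp9 and Aqp11 are blue in organoids and sorted cells against liver or hepatocytes and red in liver against adipose tissue and muscle, and the 3 CCl4 rows hold no call.

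The first question was how organoids compare with the organ they came from. EM organoids lacked the liver pattern: Aqp8 fell to a ratio of -1.84 ± 0.04 in EM organoids, against 4.56 ± 0.09 in adult liver (SD, n = 2 each), and Aqp9 and Aqp11 fell with it, while Aqp5 rose. Of the 8 members 5 were called, 1 higher and 4 lower, where 32% of all 21047 genes tested were called. Aqp5 was higher by 6.46 ± 0.54 (SE; 95% confidence interval 5.33 to 7.59; limma, adjusted p = 5.96e-09), which is 88.0-fold. Aqp8 was lower by a log2 change of -6.41 ± 0.50 (limma, adjusted p = 2.15e-09), Aqp11 by -2.04 ± 0.29 (7.87e-06) and Aqp1 by -3.47 ± 0.86 (0.00228). Aqp9, not above background in EM organoids, was at least 18.9-fold lower (limma, adjusted p = 2.17e-10). Such folds, given where 1 group was not above background, are the lowest of 3 scales, namely the fitted ratio, Cy3 scaled alone, and Cy3 against the dimmest signal above background. They hold for the probe used and these scales only. The upstream Aqp9 probes gave smaller folds wherever such a fold is given for Aqp9. No array of either group overlapped the other in any of the 5, and all 5 calls were kept under each of the 18 alternative settings tried. Between the EM and adult liver arrays scanned on the same day, 1 of each, Aqp5 differed by 6.15, Aqp8 by -6.38, Aqp9 by -3.98, Aqp11 by -2.23 and Aqp1 by -3.20. In bulk RNA, fewer cells of a type and less RNA per cell cannot be told apart.

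The neighbours of these channels moved too. Of 11 genes of peroxide and ammonia handling in hepatocytes, 10 were lower in EM organoids than in adult liver and none higher, with a median change of -4.97 against -0.09 over all genes. Cps1 and Otc, which start the urea cycle, were at least 380-fold and 119-fold lower, and the peroxide-degrading Cat was lower by -5.47 ± 0.39. Of 15 genes of glycerol handling 11 were lower and none higher, at a median of -1.64, and the gluconeogenic Fbp1 was at least 419-fold lower. Of 17 genes of ductal ion and fluid transport 7 were higher and 1 lower, at a median of 0.56: the potassium channel Kcnn4 rose by 4.01 ± 0.39, the chloride channel Ano1 by 3.95 ± 0.35, the bile duct chloride channel Cftr at least 3.32-fold, and Clcn2 was lower by -3.30 ± 0.24. Of 11 genes that anchor or regulate water channels 2 were higher (the membrane linker Ezr by 4.09 ± 0.26 and the kinase anchor Akap5 at least 2.10-fold) and 4 lower. Hepatocyte markers went the same way as Aqp8, Aqp9 and Aqp11: 4 and 0 of 8 were above background in EM organoids, at mean log2 ratios of 0.68 and 0.52, against all 8 in adult liver, at 6.17 and 6.30. Endothelial markers, at 2 and 0 of 8 in EM organoids (means -0.20 and -0.19) and 8 of 8 on both adult liver arrays (2.70 and 3.04), moved in the direction of Aqp1. Their part in these results was not tested.

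Between the media only Aqp3 passed the test. DM organoids differed from EM organoids in 1 of 8 members, Aqp3, where 10.3% of genes were called. Aqp3 was at least 2.25-fold higher in DM organoids than in EM organoids, where neither array was above background (log2 change 1.81 ± 0.43, limma, adjusted p = 0.00765). Quantile scaling ended the call, at 1.49 (limma, adjusted p = 0.0589). Aqp1 was higher by 3.20 ± 1.05, with no overlap of arrays, but at an adjusted p of 0.0501 it was not called; it was called under 7 alternative settings, among them slide as a random block. Within the slide that holds the DM array and EM replicate 2, Aqp3 differed by 1.88 and Aqp1 by 3.32. For the liver aquaporins the intervals of the difference were -1.12 to 1.44 for Aqp8 and -0.60 to 0.89 for Aqp11, and for Aqp5 -0.90 to 1.87. The single DM array was taken to vary like arrays of the other groups, since it has no replicate. The Y-linked Ddx3y and Eif2s3y were above background on the DM array, at 0.13 and 1.87, and on neither EM array, so that medium and donor sex cannot be told apart. Of the 17 ductal transport genes 2 were higher and 1 lower in DM organoids, at a median of 0.34 against 0.04 over all genes. The chloride channel Clcn2 rose by 2.86 ± 0.29, and Cftr was at least 1.49-fold lower.

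Set against adult liver, DM organoids had 5 called members, 2 higher and 3 lower, with 28.3% of genes called. Aqp5 was higher by 6.94 ± 0.66 (limma, adjusted p = 6.36e-08) and Aqp3 by 1.24 ± 0.43 (0.0308). Aqp8 was at least 76.1-fold lower (limma, adjusted p = 9.13e-08), Aqp9 at least 20.3-fold lower (4.55e-09) and Aqp11 lower by -1.90 ± 0.36 (2.81e-04). Aqp1, at -0.27 ± 1.05 (interval -2.46 to 1.93), was not called. The Aqp3 call was lost without adult liver replicate 1, without replicate 2 and under 2 other scalings, with limma adjusted p-values up to 0.109, and the Aqp11 call with the scanner software's own ratio (0.0516). The groups share no slide or scan day, so that batch and group cannot be told apart.

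**Figure D4:**
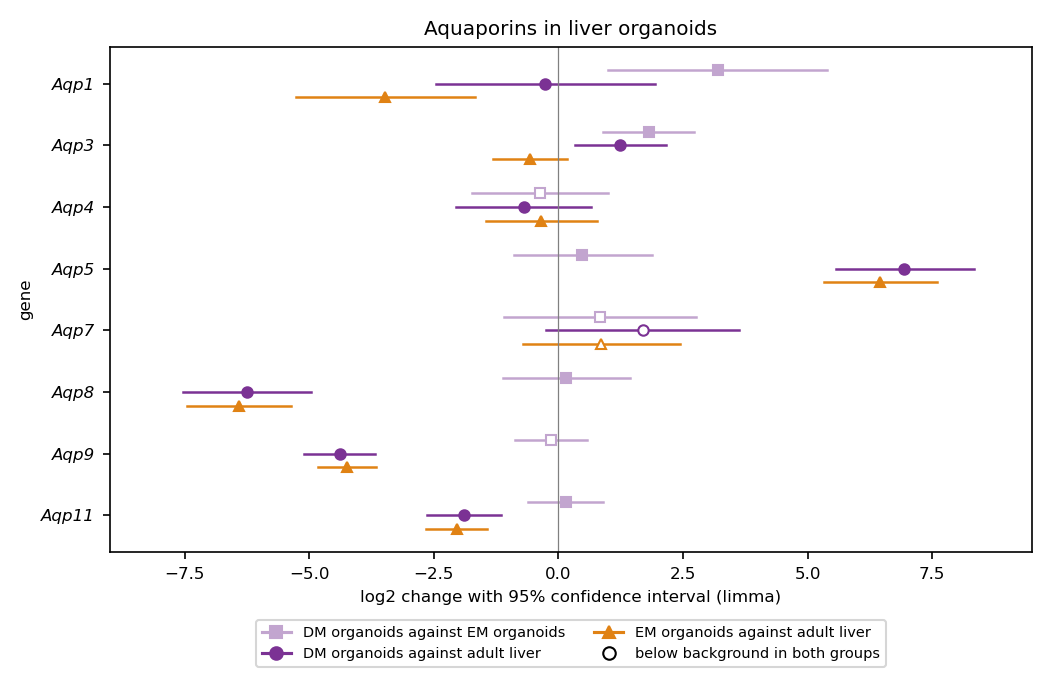
Log2 change of the 8 aquaporins (vertical axis) with its 95% confidence interval from limma (horizontal axis), for DM organoids against EM organoids, DM organoids against adult liver and EM organoids against adult liver; open symbols mark genes above background in neither group. Both organoid types lie right of 0 for Aqp5, at 6.94 and 6.46, and left of 0 for Aqp8, Aqp9 and Aqp11, and DM against EM is clear of 0 for Aqp3, at 1.81, and Aqp1, at 3.20.

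EM organoids were also set against duct cells, the sorted population nearest to them in biliary markers. Aqp5 was higher in EM organoids by 5.75 ± 0.54 (limma, adjusted p = 7.77e-08) and Aqp11 by 1.60 ± 0.29 (1.81e-04), and Aqp1 was lower by -5.62 ± 0.86 (2.74e-05). These 3 of 8 members stand beside 26.6% of all genes called. Aqp8 differed by -1.24 ± 0.50 (0.0558) and Aqp3 by -0.98 ± 0.35, which missed the minimum change. Endothelial markers were above background at 2 and 0 of 8 in EM organoids, with means of -0.20 and -0.19, and at 8 of 8 on both duct cell arrays, with means of 3.12 and 4.33; Pecam1 and Cdh5 were among them. Stellate cell and fibroblast markers were at 3 and 0 of 7 in EM organoids and at 7 of 7 on both duct cell arrays. Their part in the Aqp1 difference was not tested. Of the 17 ductal transport genes, 5 were higher and none lower in EM organoids, among them Ano1 by 2.07 ± 0.35 and Cftr by 1.68 ± 0.18. With Cy3 scaled alone 7 members were called, 1 higher and 6 lower, on a scale where the median of all genes moved by -0.98. The groups share no slide or scan day and cannot be told apart from them.

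Among cells taken straight from liver, duct cells had little of the hepatocyte's channels and more Aqp1. Against hepatocytes 4 of 8 members were called, 1 higher and 3 lower, with 23.4% of genes called. Aqp1 was higher in duct cells by 3.40 ± 0.86 (limma, adjusted p = 0.00378), a call lost without duct cell replicate 2 (0.0591). Aqp8 was lower by -6.63 ± 0.50 (1.91e-09), Aqp11 by -3.17 ± 0.29 (3.15e-08), and Aqp9 at least 13.5-fold (1.91e-10). The Aqp9 probe at base 463 gave only -1.18 here and was not called (0.124). On slides 11 and 12, each with 1 array of both, Aqp8 differed by -5.75 and -7.50, Aqp9 by -4.16 and -4.63, Aqp11 by -2.81 and -3.52 and Aqp1 by 2.95 and 3.84. Of the 11 peroxide and ammonia genes 9 were lower in duct cells (Cps1 at least 320-fold, Otc at least 72.5-fold) and none higher, while Glul, which the pericentral hepatocyte uses to fix ammonia, differed by 0.26 ± 0.39. Of the 17 ductal transport genes 4 were higher and 1 lower in duct cells, at a median of 0.59 against 0.00 over all genes. Carbonic anhydrase Car2, which feeds bicarbonate secretion, was at least 27.7-fold higher in duct cells and Kcnn4 higher by 2.44 ± 0.39. Endothelial markers, at 8 of 8 on both duct cell arrays (3.12 and 4.33), were at 5 and 4 of 8 in hepatocytes (0.73 and 0.66); their part in the Aqp1 difference was not tested.

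In Lgr5-sorted cells Aqp8, Aqp9 and Aqp11 were not above background on either array. Against whole liver 4 of 8 members were called, 1 higher and 3 lower, with 21.4% of genes called. Aqp8 was at least 28.1-fold lower (limma, adjusted p = 2.17e-07), Aqp9, on the probe used only, at least 7.06-fold (2.51e-10) and Aqp11 at least 10.3-fold (3.29e-10). Differences on slides 11 and 12 were -4.02 and -5.59 for Aqp8, -3.85 and -5.01 for Aqp9, and -4.15 and -4.80 for Aqp11. The upstream Aqp9 probes gave less. The first in the transcript gave -1.48 ± 0.55 and was not called (limma, adjusted p = 0.0507), and the second gave -1.55 ± 0.27 (1.39e-04). The fourth call, Aqp1 at 2.50 ± 0.86 (0.0324), rested on replicate 2: the arrays of the groups overlapped, the difference was -0.02 on slide 11 and 5.03 on slide 12, it was -0.27 with Cy3 scaled alone, and 5 settings ended the call. Macrophage markers averaged 7.33 and 4.93 in Lgr5-sorted cells, against 1.53 and 2.84 in whole liver, and endothelial markers 1.13 and 2.97, against 1.53 and 1.31. The endothelial mean was thus higher on the array that had the Aqp1 ratio of 5.53, and its part was not tested.

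Lgr5-sorted cells against duct cells gave 0 of 8 calls by limma, and 0 at an unadjusted p under 0.05, with 11.3% of genes called. For Aqp1 the difference was -0.70 with an interval of -2.49 to 1.09, too wide to tell a fall from a rise, and it was -2.60 on slide 11 and 1.20 on slide 12. Its sign turned to 1.79 without Lgr5-sorted replicate 1, and leaving out either Lgr5-sorted array gave 1 call, of Aqp1. Of the ductal transport genes 5 of 17 were lower in Lgr5-sorted cells and none higher, and biliary markers averaged -0.41 and -0.66 in Lgr5-sorted cells, against 2.11 and 1.63 in duct cells.

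Hepatocytes against whole liver also gave no call among the 8, where 0.798% of genes were called. At an unadjusted p under 0.05 there were 2, Aqp8 at 1.26 ± 0.50 (limma, adjusted p = 0.31) and Aqp11 at -1.07 ± 0.29 (0.0855). On slides 11 and 12 Aqp8 differed by 1.19 and 1.32 and Aqp11 by -1.23 and -0.90. Aqp8 overlapped between the groups and Aqp11 did not, and with the replicate number as a block Aqp11 was called, at -1.07 ± 0.23 (limma, adjusted p = 0.0326). Aqp9 differed by 0.22, with an interval of -0.38 to 0.81.

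Injury by CCl4 was followed at day 3 and day 13 against the 4 undamaged livers, adult and whole liver together. On the probe used for each gene, none of the 8 aquaporins was called by limma at either time or between the times on the scale used throughout, and none had an unadjusted p under 0.05. The background was 6.99% of genes at day 3, 1.35% at day 13 and 5.68% for day 13 against day 3. On that scale the difference of Aqp8 from undamaged liver had intervals of -1.10 to 0.71 at day 3 and -1.25 to 0.56 at day 13. Aqp9 had intervals of -0.73 to 0.29 and -0.16 to 0.86, and Aqp11 of -0.88 to 0.18 and -0.59 to 0.46. In transcript order, the upstream Aqp9 probes gave 0.46 ± 0.48 and 0.28 ± 0.23 at day 3. At day 13 they gave 1.01 ± 0.48 and 0.82 ± 0.23 (limma, adjusted p = 0.337 and 0.0668), and neither was called at either time. With quantile scaling, however, Aqp9 was called lower at day 3, at -1.08 (limma, adjusted p = 0.00114), and the scanner software's own ratio gave -1.09 (0.165). For Aqp1, which read 0.50 to 1.73 on undamaged livers, 2.01 and 2.01 at day 3 and 1.75 and 1.79 at day 13, the differences of 0.95 ± 0.74 and 0.71 ± 0.74 were not called although no arrays overlapped. Other hepatocyte genes did change at day 3: among the 11 peroxide and ammonia genes Glul was lower by -2.38 ± 0.34, Cat by -1.87 ± 0.34 and Asl by -1.41 ± 0.28, and none was higher. Hepatocyte markers were above background at 8 of 8 on all 8 arrays, with means of 6.10 to 7.35 in undamaged livers, 6.08 to 6.10 at day 3 and 6.02 to 6.24 at day 13. These means hide Cyp2e1, whose ratio was 5.23 and 5.27 at day 3 against 5.42 to 6.78 in undamaged livers. Its log2 Cy3 was 12.86 and 12.63 against 16.42 to 17.18, and no other of the 8 fell as far. With Cy3 scaled alone, Aqp8 differed at day 3 by 0.03 (limma, adjusted p = 0.969) and Aqp9 by -0.79 (0.219). At day 13 it gave 1.15 for Aqp8 (limma, adjusted p = 0.556), outside the interval of the ratio, and 0.12 for Aqp9 (0.885). All CCl4 arrays lie on 1 slide that holds no undamaged liver, so that slide and treatment cannot be told apart.

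Adult liver was then set against the other tissues, with which it shares no slide or scan day. Aqp9 and Aqp11 were higher in liver in each of the 3 comparisons. Aqp8 was higher than in white adipose tissue and muscle but, by its ratio, not than in pancreas. Against pancreas 3 of 8 members were called, 2 higher and 1 lower (29% of genes). Aqp9 was at least 20.4-fold higher in liver (limma, adjusted p = 5.04e-11), Aqp11 higher by 2.83 ± 0.29 (1.33e-07), and Aqp5 lower by -2.32 ± 0.54 (0.00162). Aqp8 differed by -0.73 ± 0.50 (interval -1.77 to 0.32; 0.27), but by 3.16 with Cy3 scaled alone, or 3.87 relative to the median of all genes on that scale. That scaling called all 8 members, 4 higher and 4 lower. Of the peroxide and ammonia genes 10 of 11 were higher in liver, Cps1 at least 217-fold, and only Prdx4, a peroxidase of the endoplasmic reticulum, was lower, by -3.35 ± 0.24. Acinar markers averaged 2.06 and 0.82 in adult liver, against 9.53 and 8.25 in pancreas, and their part in these results was not tested. On adult liver replicate 2 Amy2a5 read 4.45 and the other acinar markers 0.01 to 0.80. Isolated hepatocytes had Amy2a5 as well, at 4.01 and 2.82.

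Against white adipose tissue 4 of 8 members were called, 3 higher and 1 lower, with 27.9% of genes called. Aqp8 was higher in liver by 5.29 ± 0.46 (limma, adjusted p = 8.98e-09), Aqp9 at least 26.2-fold (1.22e-11) and Aqp11 by 3.69 ± 0.27 (6.66e-10). Aqp7, not above background in liver, was lower by -2.45 ± 0.69 (0.00646). With only the arrays of these groups it was not called (limma, adjusted p = 0.0999), and its log2 change ran between -6.90 and -1.49 over the settings tried. Against muscle 5 of 8 were called, 3 higher and 2 lower, with 35.7% of genes called. Aqp8 was higher by 5.93 ± 0.46 (1.16e-09), Aqp9 at least 26.9-fold (8.22e-12) and Aqp11 by 3.04 ± 0.27 (7.21e-09). Aqp4 was lower in liver by -1.72 ± 0.49 (0.00514) and Aqp7 at least 1.87-fold (0.024). Against muscle Aqp4 was not called under 4 settings and Aqp7 under 6, which include leaving out either adult liver array or muscle replicate 1. Adipocyte markers were at 5 of 6 on all 3 muscle arrays, with means of 4.37 to 5.08, against 2 and 3 of 6 in adult liver (1.53 and 1.59), and their part in the Aqp7 result was not tested.

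Between the fat depots, brown adipose tissue had far more Aqp7. It was higher than in white adipose tissue by 3.58 ± 0.62 (limma, adjusted p = 1.16e-04), Aqp11 by 1.25 ± 0.24 (3.25e-04) and Aqp3 by 1.21 ± 0.29 (0.00231). Aqp5 was lower by -1.69 ± 0.44 (0.00475). These 4 of 8 members, with no overlap of arrays, stand beside 19% of genes called. Glycerol handling split: of 15 genes 4 were higher, with glycerol kinase Gk up by 4.67 ± 0.19 and the mitochondrial glycerol phosphate dehydrogenase Gpd2 by 4.35 ± 0.23, and 2 were lower, the cytosolic Gpd1 by -1.42 ± 0.21 and the lipid droplet coat Plin1 by -1.61 ± 0.34 (median 0.08, against 0.03 over all genes). The depots share no slide or scan day. The scanner software's own ratio kept only Aqp3 and Aqp11, both higher, and gave Aqp7 a change of 0.27 (limma, adjusted p = 0.796). Quantile scaling kept Aqp7 and Aqp11, both higher. With Cy3 alone 2 members were higher and 4 lower, Aqp5 and Aqp7 among them, and the median of all genes moved by -0.71.

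The fat and muscle samples shared markers of one another. Muscle markers were above background at 6 of 6 on each brown fat array, with means of 2.95 to 3.85, and at 6, 4 and 6 on the white fat arrays, with means of 3.49, 0.44 and 3.88. These ratio means do not measure how much muscle RNA an array held. On brown fat replicate 1 Myh4 read 4.45 at a log2 Cy3 of 11.49, against 5.99 at 15.48 on muscle replicate 1. Mb on the same arrays read 3.31 at 12.31, against 3.44 at 11.09. Brown adipocyte markers averaged 4.42 to 4.55 in brown adipose tissue and 3.17, 1.38 and 2.43 in white, where Ucp1 read 3.88, 0.44 and 0.31. The white fat array with the highest Aqp7 ratio, replicate 3 at 4.30, had the highest adipocyte mean (5.56) and not the highest brown adipocyte mean. For some genes, ratios on the white fat arrays differed although their Cy3 signal was similar. The endothelial marker Cdh5 read 4.4, 3.29 and 6.42 at a log2 Cy3 of 12.31, 11.89 and 12.13. The order of ratios on these arrays therefore need not be one of content. Brown fat replicate 1 also carried all 7 acinar and all 4 islet markers (means 3.46 and 3.99), and its Aqp7 of 5.92 lay between the other 2. The part of any of these markers in the Aqp7 difference was not tested.

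**Figure D5:**
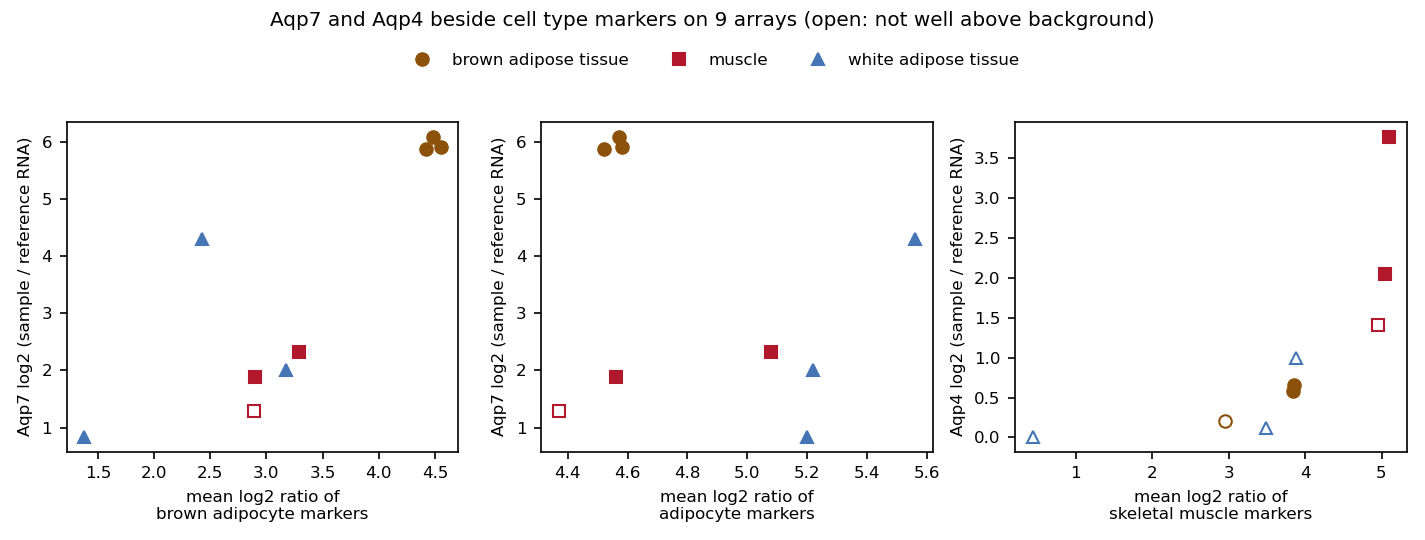
Aqp7 (left and middle) and Aqp4 (right) as log2 ratio to reference RNA on the 9 brown adipose, muscle and white adipose arrays, against the mean log2 ratio of brown adipocyte, adipocyte and skeletal muscle markers on the same array; open symbols were not well above background. The 3 brown fat arrays stand at 5.87 to 6.09 for Aqp7 beside brown adipocyte means of 4.42 to 4.55, and the 3 muscle arrays hold the highest Aqp4 values beside muscle marker means near 5.

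Muscle against white adipose tissue had 1 called member, Aqp4, where 12.6% of genes were called. It was at least 1.30-fold higher in muscle (log2 change 2.03 ± 0.43, limma, adjusted p = 0.00149), and no white fat array was above background. The call was lost with the scanner software's own ratio, with Cy3 alone, with quantile scaling and with only the arrays of these groups, and the change ranged from 0.38 to 3.00 over 19 settings. On the 1 slide with an array of both tissues the difference was 3.65. Of 11 genes that anchor or regulate water channels 6 were higher in muscle and none lower, at a median of 1.13 against 0.00 over all genes, with dystrophin (Dmd) up by 2.89 ± 0.46 and sarcoglycan alpha (Sgca) by 2.88 ± 0.38, both also muscle genes. Skeletal muscle markers averaged 4.96 to 5.10 in muscle, against 0.44 to 3.88 in white adipose tissue, and their part was not tested. Of the 15 glycerol genes 8 were lower in muscle and none higher, among them the lipase Lpl by -2.90 ± 0.43. Aqp7 was not called, at -0.55 ± 0.62 (interval -1.83 to 0.74), with overlapping arrays, but it was called lower in muscle under 4 other settings. These were the scanner software's own ratio at -2.99 (limma, adjusted p = 0.00255), Cy3 alone at -2.02 (5.52e-04), no background correction at -2.12 (1.29e-04) and quantile scaling at -1.95 (0.00239). The adipocyte marker means were 4.37 to 5.08 in muscle and 5.20 to 5.56 in white adipose tissue.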

How the data were processed

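The deposited scanner files hold spot intensity values of both dyes, extracted by Agilent Feature Extraction 10.5.1.1 per the file headers (8.5.1.1 per the submitters' processing notes). Their log10 ratio of Cy5 over Cy3, made by the same software per the file headers, equals the authors' deposited series values.

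Median intensities were corrected by normexp (offset 50) and loess in limma 3.58.1 (R 4.3.3), with 1639 control spots per array at weight 0 and 0.688% of spots left out as outliers. Spots of a probe were averaged, and log2 Cy3 over Cy5 was used. Probes above background on at least 2 of 28 arrays were tested, and the brightest probe in Cy3 stood for a gene (21047 genes, 16786 with a current symbol). limma fitted 13 group means over all arrays (15 residual and 4.41 prior degrees of freedom). Calls needed a two-sided Benjamini-Hochberg adjusted p under 0.05 over all genes and a log2 change of at least 1. The number of arrays limits precision. "At least" folds are the lowest of 3 scales (the ratio, Cy3 alone and Cy3 against the dimmest signal above background), and other settings or probes can give less. This choice, quantile scaling, crossed replicate numbers and leaving out both Lgr5-sorted arrays were added after seeing the data.

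Every member is named. The similar genes are the 3 non-members of highest Pearson r over group means, of which 1 is not reported here. Members and lists were chosen with earlier results of these data known. The fit was tested on simulated data.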

Additional observations from a re-analysis of the deposited data

How the results depend on the processing

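Of 2288 member values recomputed under other settings, 2199 stayed on their side of the threshold, 33 lost the call, 49 gained one and 7 turned sign with a call on at least 1 side. Among the 2199, 101 values that were not called turned sign, 17 of them with Cy3 alone. Of the 39 calls, 25 were kept under every setting. Between organoid media, Cy3 alone, a filter of 6 arrays, slide or scan day as a random block, the replicate block, only the compared arrays and leaving out both Lgr5-sorted arrays each gave 2 called members, and quantile scaling gave 0. With Cy3 alone, EM organoids against duct cells gave 7, Lgr5-sorted against duct cells 1, liver against pancreas 8, liver against muscle 3 and muscle against white fat 2. Quantile scaling gave 1 for Lgr5-sorted against duct cells, 1 for day 3 against undamaged livers (Aqp9), 3 for liver against muscle and 2 for brown against white fat, where the scanner's own ratio also gave 2. Muscle against white fat gave 2 without background correction and 0 with only the compared arrays. Leaving out 1 array gave 0 to 1 members for Lgr5-sorted against duct cells, with Aqp1 between -3.19 and 1.79, and 1 to 2 for muscle against white fat. Values that reversed with Cy3 alone were those of EM organoids against duct cells for Aqp4 (-1.54), Aqp7 (-1.29) and Aqp9 (-1.49), of Lgr5-sorted cells against whole liver for Aqp1 (-0.27, and -0.02 within slide 11 and scan day 7), of liver against pancreas for Aqp8 (3.16) and of brown against white fat for Aqp4 (-1.91). The cause was not tested. The median change over all genes shifted most under Cy3 alone, by -0.98 for EM organoids against duct cells and by -0.71 for liver against pancreas. That setting called 3 members higher and 0 lower for liver against muscle, 0 and 3 for Lgr5-sorted cells against whole liver and 1 and 3 for DM organoids against adult liver. Quantile scaling and the scanner's own ratio called 2 higher and 0 lower in brown against white fat, and muscle against white fat then had 1 lower member, Aqp7, in place of Aqp4.

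The labels do not say that replicate numbers mark shared animals or days, and same-numbered arrays correlated, in their deviations from group means, at 0.44 and 0.43 for duct cells against hepatocytes, 0.39 for hepatocytes against whole liver and -0.19 to 0.27 for brown against white fat, where 2 of 6 arrays were closest to their own number (4 of 6 for muscle against white fat). With the replicate block 5 members were called for duct cells against hepatocytes (Aqp4 added), 1 for hepatocytes against whole liver (Aqp11) and 2 for DM against EM organoids (Aqp1 added), and no other count moved. For the CCl4 times the correlation was -0.11, and crossed numbers gave 0 calls. Signal over background limits Aqp3, Aqp4, Aqp7 and Aqp9, with 13, 10, 11 and 10 arrays above it.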

Other observations

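The other 4 family genes on the array were Aqp12, Aqp2, Aqp6 and Mip. Aqp12, an intracellular aquaporin of pancreatic acinar cells, had log2 ratios of 6.16 and 5.66 on the pancreas arrays and was above background elsewhere only on brown adipose tissue replicate 1, at 0.71, the brown fat array on which all 7 acinar markers were above background. In adult liver it was at least 50.6-fold lower than in pancreas (limma, adjusted p = 8.83e-13). Aqp2, the vasopressin-regulated channel of the collecting duct, was above background on 23 arrays and higher in adult liver than in muscle by 1.16 ± 0.19 (SE; limma, adjusted p = 3.03e-05). Aqp6 was above background on 1 array and Mip, the lens channel, on 0.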
